A study of Mus musculus with 1931 samples.

Results

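The 7 genes described here code for proteins of the tight junction, namely the claudins *Cldn3*, *Cldn4*, *Cldn6* and *Cldn7*, occludin (*Ocln*), the scaffold protein ZO-1 (*Tjp1*) and junctional adhesion molecule A (*F11r*). They were taken by name from the 20999 genes of the expression table, and all 7 were present. Their levels were followed in single cells of mouse embryo-like structures and of flat stem cell cultures that represent the founding lineages of the early embryo, the epiblast (Epi), the visceral endoderm (VE) and the extraembryonic ectoderm (ExE).

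Tight junctions seal neighbouring epithelial cells near their apical border and set which ions and solutes pass between them. Claudins span the membrane and polymerize into the sealing strands, and the set of claudins a cell makes determines how tight and how selective the seal is. Occludin joins the strands, F11R is an immunoglobulin-like adhesion protein at the same contacts, and ZO-1 ties strand proteins to the actin cytoskeleton. In the early embryo the first tight junctions close the outer trophectoderm layer around the blastocyst cavity, and the visceral endoderm later forms a second polarized epithelium with an absorbing surface.

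Rosette-to-Lumen stage embryoids (RtL-embryoids) were built from 3 lines of embryonic stem cells (ESCs) co-cultured in agarose microwells (3D). Kermit ESCs carry GFP under the *Pou5f1* (*Oct3/4*) promoter and were the source of the Epi-like cells, 5 Factor ESCs carry transgenes for *Cdx2*, *Tfap2c*, *Eomes*, *Gata3* and *Ets2* and were the source of the ExE-like cells, and mCherry-labelled iGATA6 ESCs carry a lentiviral *Gata6* transgene and were the source of the VE-like cells. The transgenes were induced with doxycycline at 2 µg/ml, which reached the Kermit cells of the same aggregates too and was withdrawn before harvest. Handpicked embryoids were pooled into a single suspension and sorted by GFP, mCherry or a CD40 stain. In plates 3, 4 and 5 the wells of columns 1 to 8 were taken as Epi, 9 to 16 as VE and 17 to 24 as ExE, an assignment that rests on the plate layout, since the labels of these wells name only the 3D culture. The 2D counterparts were Kermit ESCs kept in 2i/LIF medium (2D ESC), iGATA6 ESCs reprogrammed to induced extraembryonic endoderm cells (2D iXEN) in serum-based XEN medium, and 5 Factor ESCs reprogrammed to induced trophoblast stem cells (2D iTSC) with FGF4 and heparin, both after the same transgene induction and withdrawal. Each lineage therefore also has its own ESC line as well as its own transgenes, and the 3D and 2D arms differ in medium, so line, transgene, medium and lineage cannot be told apart. Each 2D culture was also on a plate of its own, apart from the 3D plates, so that plate and culture cannot be told apart in any comparison with or between 2D cultures.

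Cells were kept when at least 2500 genes were listed above 0, which left 1406 of 1931 wells. Of the kept cells 22.3% were Epi, 22.4% VE and 25.1% ExE wells, and 10.1% were ESCs, 10% iXEN cells and 10% iTSCs. The median number of genes per cell was 4823 to 5396 in the 3D groups and 8537 to 9093.5 in the 2D groups, so that shares of cells above 0 are not on one footing between 3D and 2D. Levels are given as TP10k, transcripts per 10000, obtained by scaling the deposited transcript abundances (TPM) of each cell to a common sum of 10000. TPM are corrected for transcript length, so levels of different genes can be set side by side. Each 3D group came from 1 pooled suspension over 3 plates and each 2D culture was 1 sample. The range over plates is thus a technical spread, and no p-value was computed.

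Marker genes set the sorted wells apart. All 6 Epi, all 6 VE and all 6 ExE markers had their highest 3D mean in the wells of their own name. Epi cells were sorted by GFP under the *Pou5f1* promoter, so the order of *Pou5f1*, an Epi marker, may in part be built into the sort. Of the ExE markers, *Cdx2*, *Tfap2c*, *Eomes* and *Gata3* are also transgenes of the 5 Factor line. Values per gene do not separate transgene from endogenous transcripts, so their order may in part be built into the line. The same limit holds for wells counted below as led by ExE markers. A well was counted as led by another lineage when a larger share of that lineage's markers was listed above 0 in it, which was the case in 0 Epi wells, in 4 VE wells (1.27% of them) and in 58 ExE wells (16.4%), of which 31 were led by VE and 27 by Epi markers. In the iTSC culture 19 cells (13.5%) were led by Epi markers. The VE wells still held *Pou5f1*, a pluripotency gene, at 4.53 TP10k against 14.2 in Epi wells, and its part in their claudin levels was not tested. The member levels without the wells led by other markers are given where they differ.

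The promoters of the 4 claudins are shown because these genes fall into 2 pairs in the measurements that follow. *Cldn3* (chromosome 5, 134986214 to 134987472, plus strand) and *Cldn4* (chromosome 5, 134945119 to 134946934, minus strand) are single-exon genes that lie 39.3 kb apart. *Cldn6* lies on chromosome 17 (23679249 to 23682446, plus strand), 0.137 kb from the end of *Cldn9* on the other strand, and *Cldn7* on chromosome 11 (69964779 to 69967885, plus strand), all in GRCm38 with Gencode vM21 gene models. Each promoter runs from 250 bases before to 50 bases after the gene's start in RefSeq (GRCm38.p6) and is written 5′ to 3′ on the strand of the gene. Capitals mark the E-box CACCTG or its reverse complement CAGGTG, the letters read by repressors of the Snail and Zeb families. The spans are chr5:134985964-134986263 for *Cldn3*, chr5:134946885-134947184 for *Cldn4*, chr17:23679115-23679414 for *Cldn6* and, for the downstream of 2 listed starts, chr11:69965171-69965470 for *Cldn7*.
Cldn3 promoter: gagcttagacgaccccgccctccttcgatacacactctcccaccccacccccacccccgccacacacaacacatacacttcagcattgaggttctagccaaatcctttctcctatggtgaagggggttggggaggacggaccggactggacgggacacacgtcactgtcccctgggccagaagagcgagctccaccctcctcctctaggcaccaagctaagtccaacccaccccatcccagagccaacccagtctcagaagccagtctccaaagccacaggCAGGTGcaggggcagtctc
Cldn4 promoter: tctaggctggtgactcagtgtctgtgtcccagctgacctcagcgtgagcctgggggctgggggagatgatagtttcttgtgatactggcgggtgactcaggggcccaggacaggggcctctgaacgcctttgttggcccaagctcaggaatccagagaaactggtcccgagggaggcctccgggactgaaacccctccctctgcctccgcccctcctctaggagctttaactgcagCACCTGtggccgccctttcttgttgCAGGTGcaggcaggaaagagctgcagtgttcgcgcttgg
Cldn6 promoter: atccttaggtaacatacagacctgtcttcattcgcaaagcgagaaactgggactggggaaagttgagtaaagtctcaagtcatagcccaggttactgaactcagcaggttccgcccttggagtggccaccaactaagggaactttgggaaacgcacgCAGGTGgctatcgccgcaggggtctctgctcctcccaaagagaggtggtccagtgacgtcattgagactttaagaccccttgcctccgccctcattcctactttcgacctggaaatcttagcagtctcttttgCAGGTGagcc
Cldn7 promoter: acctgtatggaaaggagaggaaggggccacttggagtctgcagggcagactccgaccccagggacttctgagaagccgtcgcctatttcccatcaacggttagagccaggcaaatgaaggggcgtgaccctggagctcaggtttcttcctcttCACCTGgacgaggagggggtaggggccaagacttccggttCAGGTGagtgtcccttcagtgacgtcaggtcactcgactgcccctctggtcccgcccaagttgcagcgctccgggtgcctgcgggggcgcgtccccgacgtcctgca

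The E-box occurred once in the *Cldn3* promoter (first base at 32 after the start) and 2 times in each of the other 3, at -14 and 12 in *Cldn4*, -93 and 41 in *Cldn6* and -97 and -57 in *Cldn7*. The upstream start of *Cldn7* held none. Counting all starts, 6 of the 7 genes had at least 1 E-box, *Tjp1* being the one without, against 22.6% of the 27025 genes in the promoter table. All 7 had the GC box GGGCGG on either strand (38.2% of genes) and none had TATAAA (15.7%). A match of letters is a description of the window and not a binding site.

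*Cldn3* and *Cldn4* were high in the trophoblast groups. Mean *Cldn4* was 8.39 TP10k in ExE wells, with 7.78, 8.09 and 9.37 on plates 3, 4 and 5, and 8.49 TP10k in iTSCs. It was 2.12 in Epi wells (plates 1.99 to 2.22), 0.885 in ESCs, 0.106 in iXEN cells and 0.0582 in VE wells (plates 0 to 0.115). *Cldn4* thus followed the order of trophoblast, epiblast and endoderm, and the plate range of the ExE wells enclosed the iTSC value.

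*Cldn3* shared the trophoblast part of that pattern but was nearly absent from the other groups. Its mean was 2.28 TP10k in ExE wells (2.48, 2.68 and 1.64 on the 3 plates) and 2.74 in iTSCs, above every ExE plate. Epi wells had 0.0751 (0.1, 0.0861 and 0.0402), ESCs 0.0507, VE wells 0.0261 and iXEN cells 0.00913. Epi wells and ESCs could not be separated for *Cldn3*, since the ESC value lay inside the Epi plate range, and the same held for VE wells and iXEN cells.

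In VE wells the little *Cldn3* and *Cldn4* there was came largely from wells whose markers pointed elsewhere. *Cldn3* was above 0 in 2 VE wells (0.635%), and both belonged to the 4 wells led by other markers. Without these 4, *Cldn3* was listed at 0 in all VE wells left, which allows a share of up to 0.965%, and mean *Cldn4* was 0.0114 TP10k, with 4 wells above 0.

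*Cldn6* and *Cldn7* were highest in iXEN cells, present in VE and trophoblast groups and lowest in the pluripotent groups. Mean *Cldn6* was 17.7 TP10k in iXEN cells, the highest level of any member in any group. VE wells had 4.77 (5.6, 4.56 and 4.05 on plates 3, 4 and 5), ExE wells 4.02 (4.49, 4.25 and 3.28) and iTSCs 3.99. Epi wells had 0.903 (0.957, 0.986 and 0.768) and ESCs 0.289. The plate ranges of VE and ExE wells overlapped for *Cldn6*. Without the wells led by other markers they did not, at 4.05 to 5.54 in VE and 3.25 to 3.97 in ExE wells, and the 58 ExE wells left out had a mean of 6.57.

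*Cldn7* ran in parallel at a lower level. Its mean was 6.38 TP10k in iXEN cells, 2.28 in iTSCs, 1.97 in ExE wells (2.17, 2.27 and 1.44), 1.59 in VE wells (1.77, 1.54 and 1.45), 0.47 in Epi wells (0.512, 0.446 and 0.453) and 0.0762 in ESCs. ExE and VE wells overlapped, while Epi wells lay below both on every plate and ESCs below all Epi plates. Over the 9 plate means and 3 culture means, log2 levels of *Cldn6* and *Cldn7* had a Pearson correlation of 0.98, that of *Cldn3* and *Cldn4* was 0.84 and that of *Cldn4* and *Cldn6* was -0.26, values whose points share cells and scaling and which serve as description.

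*F11r* was highest in the ExE wells. Its mean was 5.72 TP10k in ExE wells (5.88, 5.02 and 6.27), 2.2 in iTSCs, 1.6 in iXEN cells, 0.907 in Epi wells (0.844, 0.989 and 0.883), 0.835 in VE wells (0.927, 0.923 and 0.632) and 0.522 in ESCs. All ExE plates were above the iTSC culture, and Epi and VE wells overlapped.

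*Ocln* was low throughout and followed the *Cldn6* order at its upper end. Its mean was 0.553 TP10k in iXEN cells, 0.225 in VE wells (0.192, 0.255 and 0.229), 0.185 in ExE wells (0.192, 0.211 and 0.15), 0.0713 in ESCs, 0.068 in Epi wells (0.0715, 0.0576 and 0.0753) and 0.0391 in iTSCs. VE and ExE wells overlapped with all wells included. Without the wells led by other markers the ExE mean was 0.129 with plates from 0.0709 to 0.156, below every VE plate (0.194 to 0.262), and the 58 ExE wells left out had a mean of 0.469.

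*Tjp1* varied least. Its mean lay between 0.206 TP10k in ESCs and 0.385 in iXEN cells. The 3D groups were at 0.278 (VE; 0.244, 0.366 and 0.221), 0.263 (Epi; 0.255, 0.195 and 0.34) and 0.242 (ExE; 0.28, 0.244 and 0.199), and iTSCs at 0.271. The plate ranges of the 3D groups overlapped with each other and enclosed the iTSC value, so no order can be read among them.

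**Figure D1:**
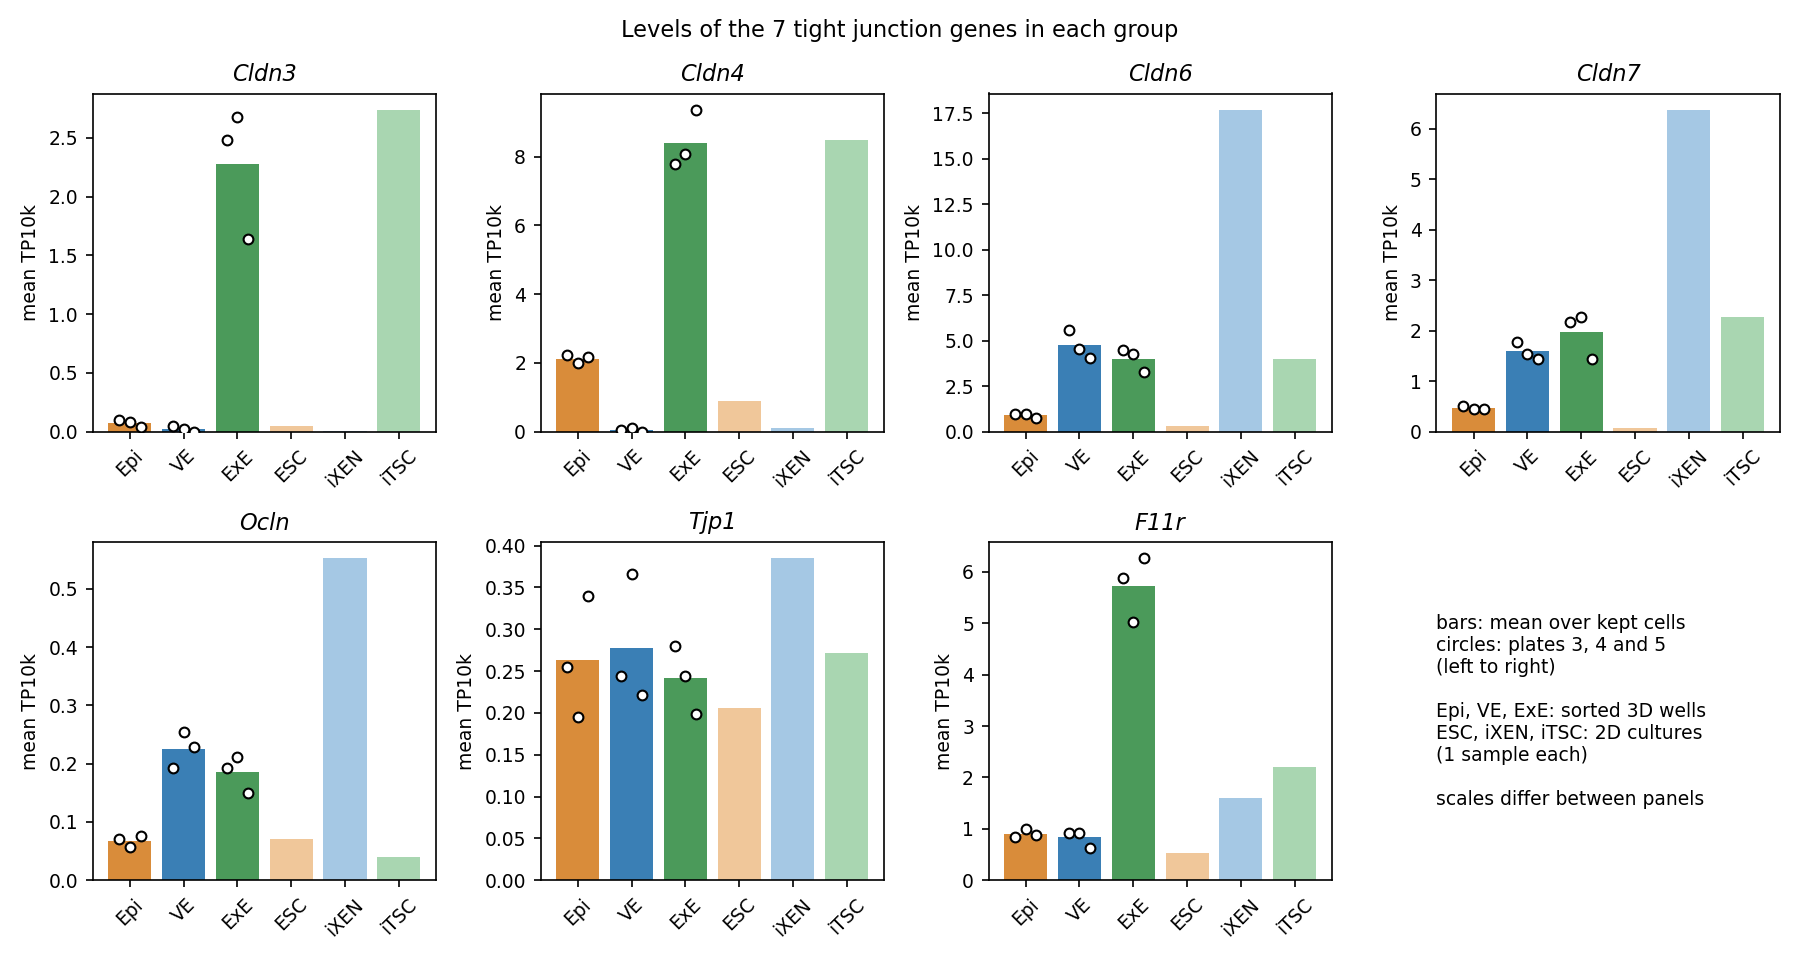
Mean level in TP10k (vertical axis, separate scale in each panel) of the 7 genes in the 6 groups (horizontal axis), with bars for the mean over kept cells and circles for plates 3, 4 and 5 of the 3D wells. *Cldn3* and *Cldn4* stand highest in ExE wells and iTSCs, *Cldn6*, *Cldn7* and *Ocln* in iXEN cells, *F11r* in ExE wells at 5.72 TP10k, and *Tjp1* stays between 0.206 and 0.385.

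The claudin repertoire was dominated by these 4 members in each group. The table held 29 claudin genes, and the 4 members made up 93.8% of summed claudin TP10k in Epi wells, 97% in VE wells, 96.7% in ExE wells, 88.4% in ESCs, 99.2% in iXEN cells and 97.6% in iTSCs. The sum over all claudins was 3.81 TP10k in Epi (plates 3.62 to 4.1), 6.64 in VE (5.7 to 7.71) and 17.2 in ExE wells (16.3 to 17.7), against 1.47 in ESCs, 24.4 in iXEN cells and 17.9 in iTSCs. Per lineage, the 3D sum was thus above the 2D sum for Epi, below it for VE, and close to it for ExE.

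The extraembryonic lineages had similar claudin shares in 3D and 2D, also where the sum differed. *Cldn6* and *Cldn7* formed 71.8% and 24% of the claudin sum in VE wells (plates 71 to 72.6 and 22.9 to 25.4) and 72.6% and 26.1% in iXEN cells. In ExE wells *Cldn4* took 48.7%, *Cldn6* 23.3%, *Cldn3* 13.2% and *Cldn7* 11.4%, and in iTSCs the shares in the same order were 47.4%, 22.3%, 15.3% and 12.7%, inside the ExE plate ranges except for *Cldn3*, which was just above its range of 10.1 to 15.1%. In Epi wells *Cldn4* took 55.7%, *Cldn6* 23.7% and *Cldn7* 12.3%. In ESCs *Cldn4* took 60.2% and *Cldn6* 19.6%, and *Cldn7* 5.18%, below its plate range of 12 to 12.5 in Epi wells.

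**Figure D2:**
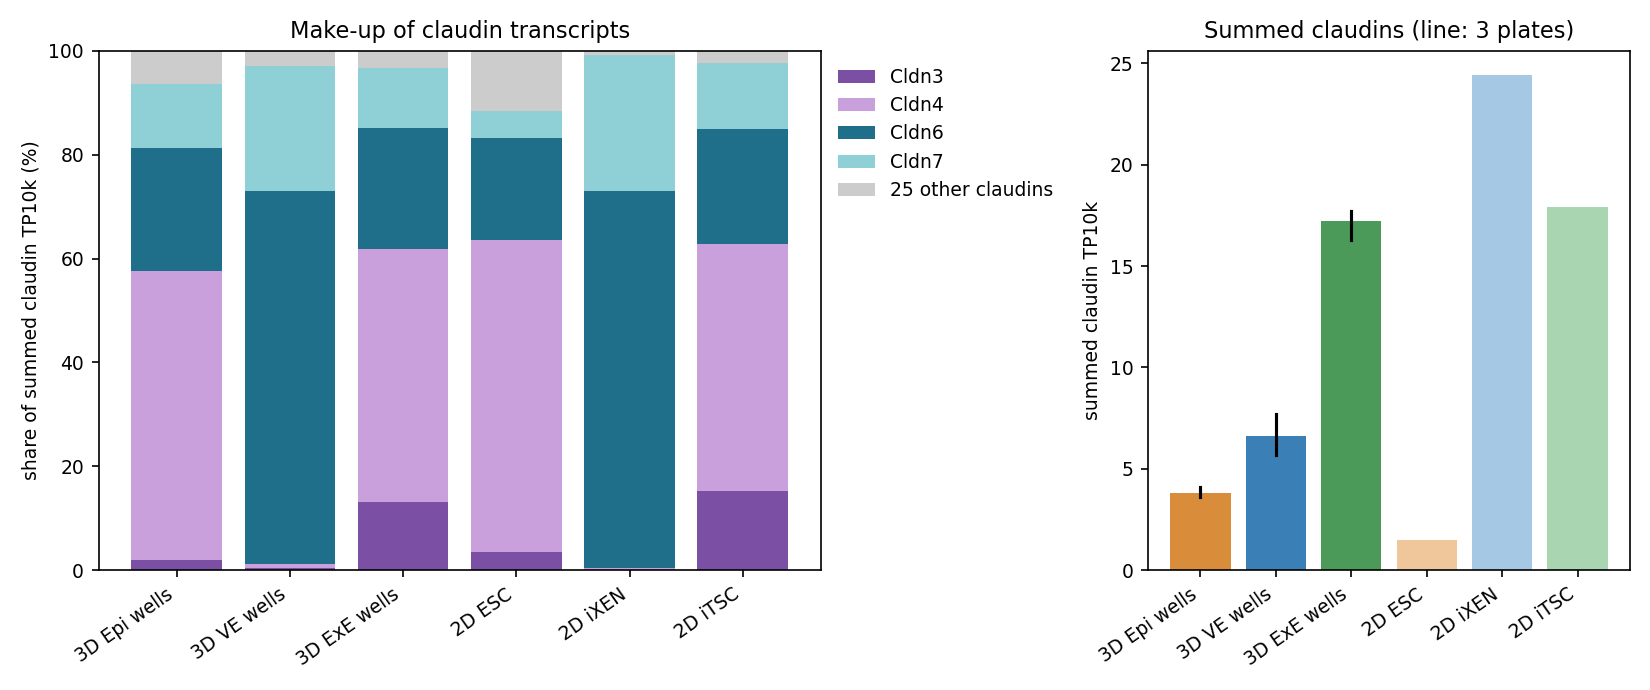
Left, share of summed claudin TP10k in percent (vertical axis) held by *Cldn3*, *Cldn4*, *Cldn6*, *Cldn7* and the 25 other claudins in the 6 groups. Right, the summed claudin TP10k, with a line over the range of the 3 plates. VE wells and iXEN cells are almost wholly *Cldn6* and *Cldn7*, at sums of 6.64 and 24.4, whereas *Cldn4* holds the largest share in the other 4 groups.

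Differences between groups were expressed as log2 ratios of means after adding 0.1 TP10k, which understates the change of low genes. A gene counted as called when it was listed above 0 in 10% or more of the cells in one of both groups, differed at least 2-fold and, where 3D wells entered, had the same sign on all 3 plates. Comparisons that share a group are not independent of each other.

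VE wells differed from Epi wells in 3 of the 7 members, 2 of them higher and 1 lower, where 8.48% of the 10662 genes compared were called higher and 7.54% lower. *Cldn4* was lower in VE wells by a log2 ratio of -3.81 (plates -4.50 to -3.28), whereas *Cldn6* was higher by 2.28 (2.10 to 2.43) and *Cldn7* by 1.57 (1.48 to 1.61). *Ocln* was higher on each plate (0.77 to 1.17) but its ratio of 0.95 missed the threshold. The signs of *Tjp1* and *F11r* differed between plates, with ratios of 0.06 and -0.11. *Cldn3*, low in both, had -0.47. The median over the 7 members was 0.06, beside -0.04 over all genes compared.

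ExE wells exceeded Epi wells in 5 of 7 members, where 6.53% of 10886 genes were called higher and 3.78% lower. *Cldn3* had the largest ratio at 3.76 (plates 3.64 to 3.90), a 30.3-fold difference of means, followed by *F11r* at 2.53 (2.23 to 2.70), *Cldn6* at 2.04 (1.96 to 2.12), *Cldn4* at 1.94 (1.76 to 2.07) and *Cldn7* at 1.86 (1.48 to 2.12). *Ocln* had 0.76 and *Tjp1* -0.09, neither of them called. The members' median was 1.94, beside 0.07 over all genes. All 4 claudins were thus higher in ExE than in Epi wells on every plate.

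VE wells were below ExE wells in 3 of 7 members, where 5.97% of 10836 genes were called lower and 4.13% higher. *Cldn4* was lower by a log2 ratio of -5.75 (plates -6.57 to -5.25), *Cldn3* by -4.24 (-4.47 to -4.11) and *F11r* by -2.64 (-3.12 to -2.32). No member was called higher in VE wells. *Cldn6* (0.24), *Cldn7* (-0.29), *Ocln* (0.19) and *Tjp1* (0.15) were not called, and the medians were -0.29 over the members and -0.10 over all genes. Both extraembryonic compartments therefore had *Cldn6* and *Cldn7* above the Epi wells, and ExE wells had *Cldn3*, *Cldn4* and *F11r* above both other groups.

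**Figure D3:**
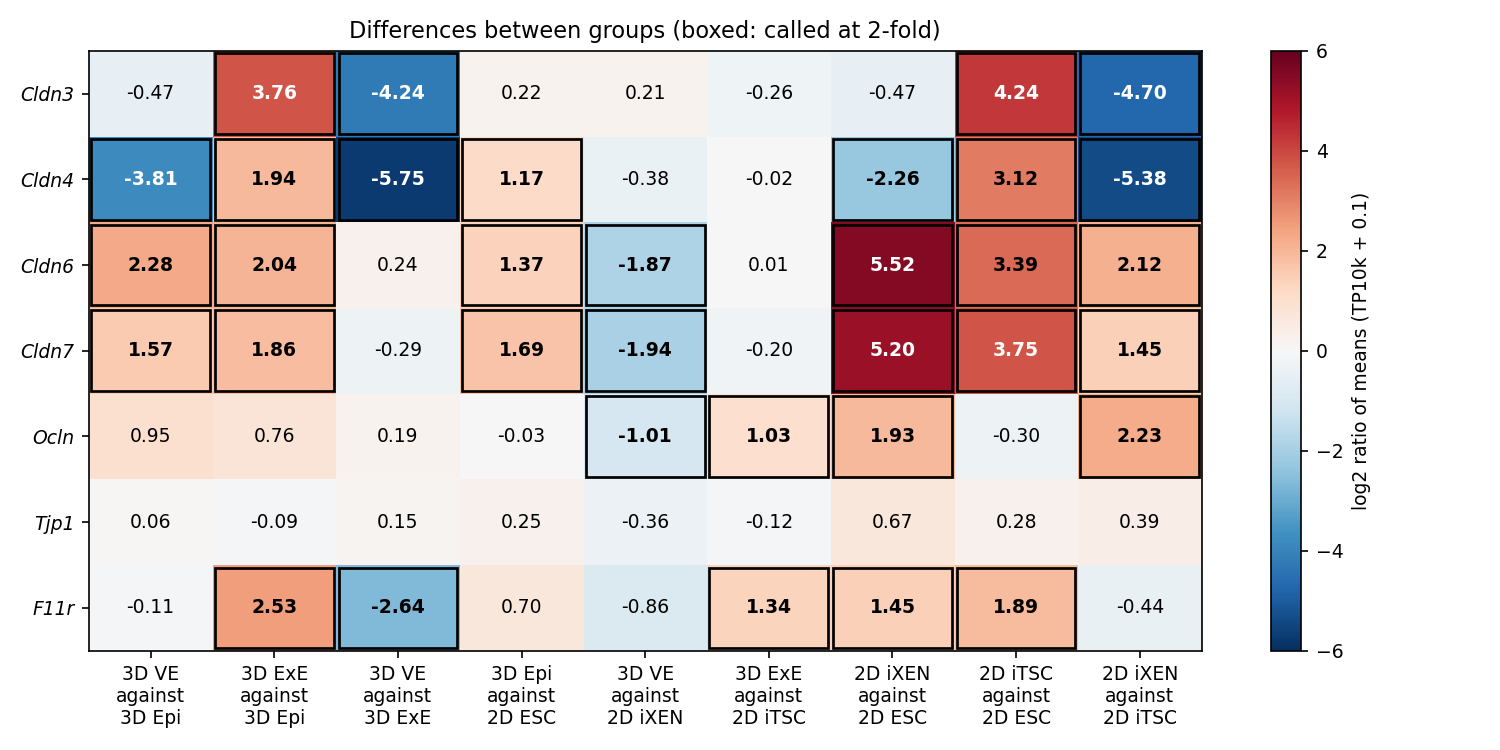
Log2 ratio of mean TP10k, with 0.1 added, for the 7 members (rows) in 9 comparisons (columns, first group against second), coloured from blue (lower in the first) to red (higher in the first), with called differences boxed and in bold. *Cldn6* and *Cldn7* share the sign in 7 of the 9 columns, *Cldn3* and *Cldn4* differ most between endoderm and trophoblast, and *Tjp1* is called in none.

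Against their flat counterparts, Epi wells had higher means of *Cldn4*, *Cldn6* and *Cldn7*, and VE wells had lower means of *Cldn6* and *Cldn7*. Epi wells exceeded 2D ESCs in *Cldn7* by a log2 ratio of 1.69 (plates 1.63 to 1.80), in *Cldn6* by 1.37 (1.16 to 1.48) and in *Cldn4* by 1.17 (1.08 to 1.24). These were 3 of 7 members, where 2.49% of 13109 genes were called higher and 1.92% lower. *F11r* was higher on all plates but below the threshold at 0.70. *Ocln*, *Tjp1* and *Cldn3* had -0.03, 0.25 and 0.22, and the medians were 0.70 over the members and 0.04 over all genes. With the mean of log values in place of the arithmetic mean, *Cldn4* and *Cldn6* were no longer called here, and *Cldn7* was. Over all genes that setting moved the share of calls that were higher in Epi wells from 56.4% to 26.3%.

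VE wells were below 2D iXEN cells in *Cldn7* (-1.94, plates -2.07 to -1.80), *Cldn6* (-1.87, -2.10 to -1.65) and *Ocln* (-1.01, -1.16 to -0.88), where 1.48% of 12248 genes were called lower and 0.906% higher. The *Ocln* ratio stood at the threshold and was not called under 4 of the 13 alternative settings, some of which can only add calls. *F11r* had -0.86 and *Tjp1* -0.36, both negative on each plate, *Cldn4* had -0.38, and *Cldn3* was below the share filter in both groups. The 6 members compared had a median of -0.93, beside 0.01 over all genes. The parietal endoderm marker list shares genes with the endoderm at large. Its 6 genes summed to 82.7 TP10k in VE wells and to 1.59 times as much in iXEN cells. That ratio rested mainly on *Sparc*, which alone had 59.9 TP10k in VE wells. *Col4a1* had 16.1 in VE wells and 19.4 in iXEN cells, and *Lamb1* 5.86 and 5.16. Of the 6 genes, 4 had their highest mean in iXEN cells, while *Lamb1* and *Thbd* were lower there than in VE wells. The part of the list in the claudin difference was not tested.

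None of the 4 claudins was called between ExE wells and 2D iTSCs. The log2 ratios were -0.02 for *Cldn4* (plates -0.12 to 0.14), 0.01 for *Cldn6* (-0.27 to 0.17), -0.20 for *Cldn7* (-0.62 to 0) and -0.26 for *Cldn3* (-0.71 to -0.03), so that for *Cldn3* every plate was below the iTSC value. *Tjp1* had -0.12, and the medians were -0.02 over the members and 0.01 over all genes. *F11r* was higher in ExE wells by 1.34 (1.16 to 1.47) and *Ocln* by 1.03 (0.85 to 1.16), where 3.65% of 13012 genes were called higher and 2.67% lower. Without the 58 ExE wells and 19 iTSCs led by other markers the *Ocln* ratio was 0.83 and was not called, as was the case without plate 4. *F11r*, in contrast, stayed called under all 13 alternatives, though some of these can only add calls. Over all genes the share of calls that were higher in ExE wells was 57.7%, and 32.3% with the mean of log values.

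Among the 2D cultures, both reprogrammed lines exceeded ESCs in *Cldn6*, *Cldn7* and *F11r*. iXEN cells exceeded ESCs in *Cldn6* (17.7 against 0.289 TP10k, log2 ratio 5.52), *Cldn7* (6.38 against 0.0762, 5.20), *Ocln* (1.93) and *F11r* (1.45), and were below them in *Cldn4* (-2.26), which made 4 members called higher and 1 lower where 8.21% and 5.96% of 13681 genes were. iTSCs exceeded ESCs in *Cldn3* (4.24), *Cldn7* (3.75), *Cldn6* (3.39), *Cldn4* (3.12) and *F11r* (1.89), 5 of 7 called higher where 5.69% of 13788 genes were and 3.30% were called lower. Between both reprogrammed lines, *Cldn4* (-5.38) and *Cldn3* (-4.70) were lower and *Ocln* (2.23), *Cldn6* (2.12) and *Cldn7* (1.45) higher in iXEN cells, where 5.30% of 13450 genes were called lower and 5.18% higher. The members' medians were 1.45, 3.12 and 0.39 in these comparisons, beside 0, 0.06 and -0.06 over all genes. *Tjp1* was called in none of the 9 comparisons. Each of these comparisons sets 1 culture against 1 culture and has no replicate.

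Other tight junction genes were compared in the same way. The list held 49 genes, the 25 other claudins, the MARVEL proteins *Marveld2* and *Marveld3*, 8 immunoglobulin-like membrane proteins and a plaque group of 14. The plaque group held cytoplasmic proteins and the membrane protein gene *Bves*. Of the 49 genes, 27 were above 0 in 10% or more of a group. In VE against Epi wells 3 of 20 compared were called higher and 1 lower, in ExE against Epi wells 5 of 21 higher and 1 lower, and in VE against ExE wells 2 of 21 higher and 4 lower. The median log2 ratio of the compared list genes was -0.05, 0.46 and -0.38 in these comparisons, beside -0.04, 0.07 and -0.10 over all genes compared, whose shares of calls are given above for each comparison. Against 2D, 1 of 21 was called higher and 2 lower in Epi wells, 1 of 23 higher and 1 lower in VE wells, and 2 of 25 higher and 1 lower in ExE wells, at list medians of 0.13, -0.07 and 0.15, beside 0.04, 0.01 and 0.01 over all genes. All genes were called higher and lower at 2.49% and 1.92%, 0.906% and 1.48%, and 3.65% and 2.67% in these comparisons. Between the 2D cultures, 4 of 24 were called higher and 2 lower in iXEN cells than in ESCs, 3 of 26 higher and 1 lower in iTSCs than in ESCs, and 3 of 26 higher and 2 lower in iXEN cells than in iTSCs. The list medians were 0.27, 0.37 and -0.13, beside 0, 0.06 and -0.06, and all genes were called at 8.21% and 5.96%, 5.69% and 3.30%, and 5.18% and 5.30%.

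Among immunoglobulin-like proteins, *Jam2*, a junctional adhesion molecule, marked the pluripotent groups, with 1.29 TP10k in Epi wells (plates 1.08 to 1.54) and 3.2 in ESCs against 0.0281 in VE and 0.0195 in ExE wells. Its called log2 ratios were -3.44 for VE and -3.54 for ExE against Epi wells, -1.25 for Epi wells against ESCs, and -4.82 and -4.50 for iXEN cells and iTSCs against ESCs. This was the reverse of *F11r*, its relative, in the ExE wells. *Jam3* was higher in ExE wells than in Epi wells (log2 ratio 1.48) and than in iTSCs (1.63). *Esam*, an endothelial-type adhesion molecule, was highest in VE wells at 0.467 TP10k, with a log2 ratio of 2.23 to Epi wells, 1.98 to ExE wells and 1.35 to iXEN cells, and it was higher in iTSCs than in ESCs (1.10). *Lsr*, which recruits tricellulin to corners where 3 cells meet, had 1.46 TP10k in VE wells and 1.66 in iXEN cells. It was higher in iXEN cells than in ESCs (2.82) and iTSCs (1.78), and higher in Epi wells than in ESCs (1.74). Its relative *Ildr1* was lower in VE than in ExE wells (-2.11) and in iXEN cells than in iTSCs (-1.83), and also in Epi wells than in ESCs (-1.06). The 2 tricellular angulins thus had their higher level in different extraembryonic lineages.

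Of the plaque group, *Patj*, a polarity scaffold, was higher in VE than in Epi wells (1.74) and in iXEN cells than in ESCs (2.35). *Bves*, a membrane protein that associates with ZO-1, was higher in ExE wells than in Epi wells (1.71), iTSCs (1.46), and lower in VE than in ExE wells (-1.82). *Tjp3* (ZO-3) was highest in iTSCs at 0.514 TP10k, with log2 ratios of -1.10 for ExE wells and -1.41 for iXEN cells against iTSCs and 1.74 for iTSCs against ESCs, and *Cgn* (cingulin) was lower in VE wells than in iXEN cells (-1.16).

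Among the 25 other claudins, 2 were above 0 in 25% or more of a group. *Cldn12* was listed in 22.9% of Epi, 39% of VE and 45.9% of ExE wells at means of 0.116, 0.136 and 0.292 TP10k, and *Cldn34c1* in 54.9% of ESCs and 46.8% of iTSCs at no more than 0.056 TP10k. *Cldn9*, the neighbour of *Cldn6*, which is named here after its values were seen, was called in ExE against Epi wells (1.12) and in VE against ExE wells (-1.51). Its mean was 0.187 TP10k in ExE wells and 0.000673 in VE wells, so that it was lower in VE wells, where *Cldn6* was not. Of the 31-base words of *Cldn6* transcripts 0.407% also occur in *Cldn9* transcripts, and 1.22% of those of *Cldn3* occur in another gene's transcripts, *Cldn4* among them, so a small part of their reads could be assigned to either gene.

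Partners and regulators of claudins were followed in a list of 16 genes. In VE against Epi wells 2 of 13 compared were called higher and 2 lower, in ExE against Epi wells 2 of 10 higher, and in VE against ExE wells 1 of 13 higher and 2 lower. All genes were called higher and lower at 8.48% and 7.54%, 6.53% and 3.78%, and 4.13% and 5.97% in the same order. Against 2D, 3 of 14 were called higher and 1 lower in Epi wells, 1 of 14 lower in VE wells and 0 of 15 in ExE wells. All genes were called higher and lower there at 2.49% and 1.92%, 0.906% and 1.48%, and 3.65% and 2.67%. Between the 2D cultures, 3 of 15 were called higher in iXEN cells than in ESCs and 5 of 15 higher in iTSCs than in ESCs. In iXEN cells against iTSCs 1 of 15 was called higher and 3 lower. All genes were called higher and lower in these at 8.21% and 5.96%, 5.69% and 3.30%, and 5.18% and 5.30%. *Epcam*, which binds claudin-7 and shields it from degradation, had 3.68 TP10k in ExE wells, 3.06 in iTSCs, 1.79 in Epi wells, 0.885 in iXEN cells, 0.718 in VE wells and 0.423 in ESCs. It was called lower in VE than in Epi (-1.21) and ExE wells (-2.21), lower in iXEN cells than in iTSCs (-1.68) and higher in Epi wells than in ESCs (1.86), an order that *Cldn7* did not share, since *Cldn7* was higher in VE than in Epi wells. The membrane protease gene *Prss8* was higher in Epi wells than in ESCs (1.45), the protease inhibitor gene *Spint1* was lower there (-1.02), and the protease gene *St14* was lower in VE wells than in iXEN cells (-1.01). iTSCs exceeded ESCs in *Epcam* (2.60), *Prss8* (1.77), *St14* (1.32), *Spint2* (1.04) and *Snai1* (1.09), and iXEN cells exceeded ESCs in *Prss8* (2.36), *Snai1* (2.14) and *Spint2* (1.51).

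Of the grainyhead factors, which activate epithelial junction genes, *Grhl3* was low in endoderm. *Grhl3* had 0.28 TP10k in ExE wells and 0.378 in iTSCs against 0.00466 in VE wells and 0.0454 in iXEN cells, with called ratios of -1.86 and -1.72 for endoderm against trophoblast. *Grhl3* was also higher in ExE than in Epi wells (1.19). *Grhl2* was lower in VE than in Epi wells (-1.07), lower in iXEN cells than in iTSCs (-1.01) and higher in Epi wells than in ESCs (1.14). *Klf5* was higher than in Epi wells in both VE (1.5) and ExE wells (1.11). *Snai1*, which codes for a repressor that reads the E-box marked above, was highest in the endoderm groups, at 0.432 TP10k in iXEN cells and 0.267 in VE wells (plates 0.151 to 0.392), then 0.156 in iTSCs and 0.0124 to 0.0424 elsewhere. It was called higher in VE wells than in Epi (1.71) and ExE wells (1.37) and in iXEN cells than in iTSCs (1.05). Its part in the claudin levels was not tested.

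The share of cells in which a member was listed above 0 did not always have the order of the means. *Cldn4* was above 0 in 80.9% of Epi wells (exact 95% binomial interval 76.1 to 85.1), 2.54% of VE wells (1.1 to 4.94), 73.4% of ExE wells (68.4 to 77.9), 97.9% of ESCs, 20.6% of iXEN cells and 100% of iTSCs. ESCs thus had a larger share than Epi wells at a lower mean, and so did Epi wells against ExE wells. *Cldn6* was above 0 in 43.3% of Epi (37.8 to 49), 87% of VE (82.8 to 90.5) and 73.4% of ExE wells. In ESCs its share was 58.5%, again above the Epi wells at a lower mean. *F11r* reached 95.8% in ExE wells (93.1 to 97.6), against 59.6% in Epi and 61% in VE wells. These intervals cover counting of cells only.

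In cells with 5500 to 8500 genes, the 3 groups of 3D wells kept their order of shares for each of the 4 claudins. There *Cldn3* was above 0 in 22.4% of Epi, 0.699% of VE and 71.7% of ExE wells, which were 27.1%, 45.4% and 47% of these groups, and *Cldn6* in 58.8%, 93.7% and 81.3%. The share of *Tjp1* moved with gene number while its mean did not follow. In VE wells it was above 0 in 52.4% of the third of cells with fewest genes and 94.3% of the third with most, at means of 0.318 and 0.257 TP10k. The range held 20 ESCs, and the *Cldn4* share in them was 95% with an interval of 75.1 to 99.9.

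**Figure D4:**
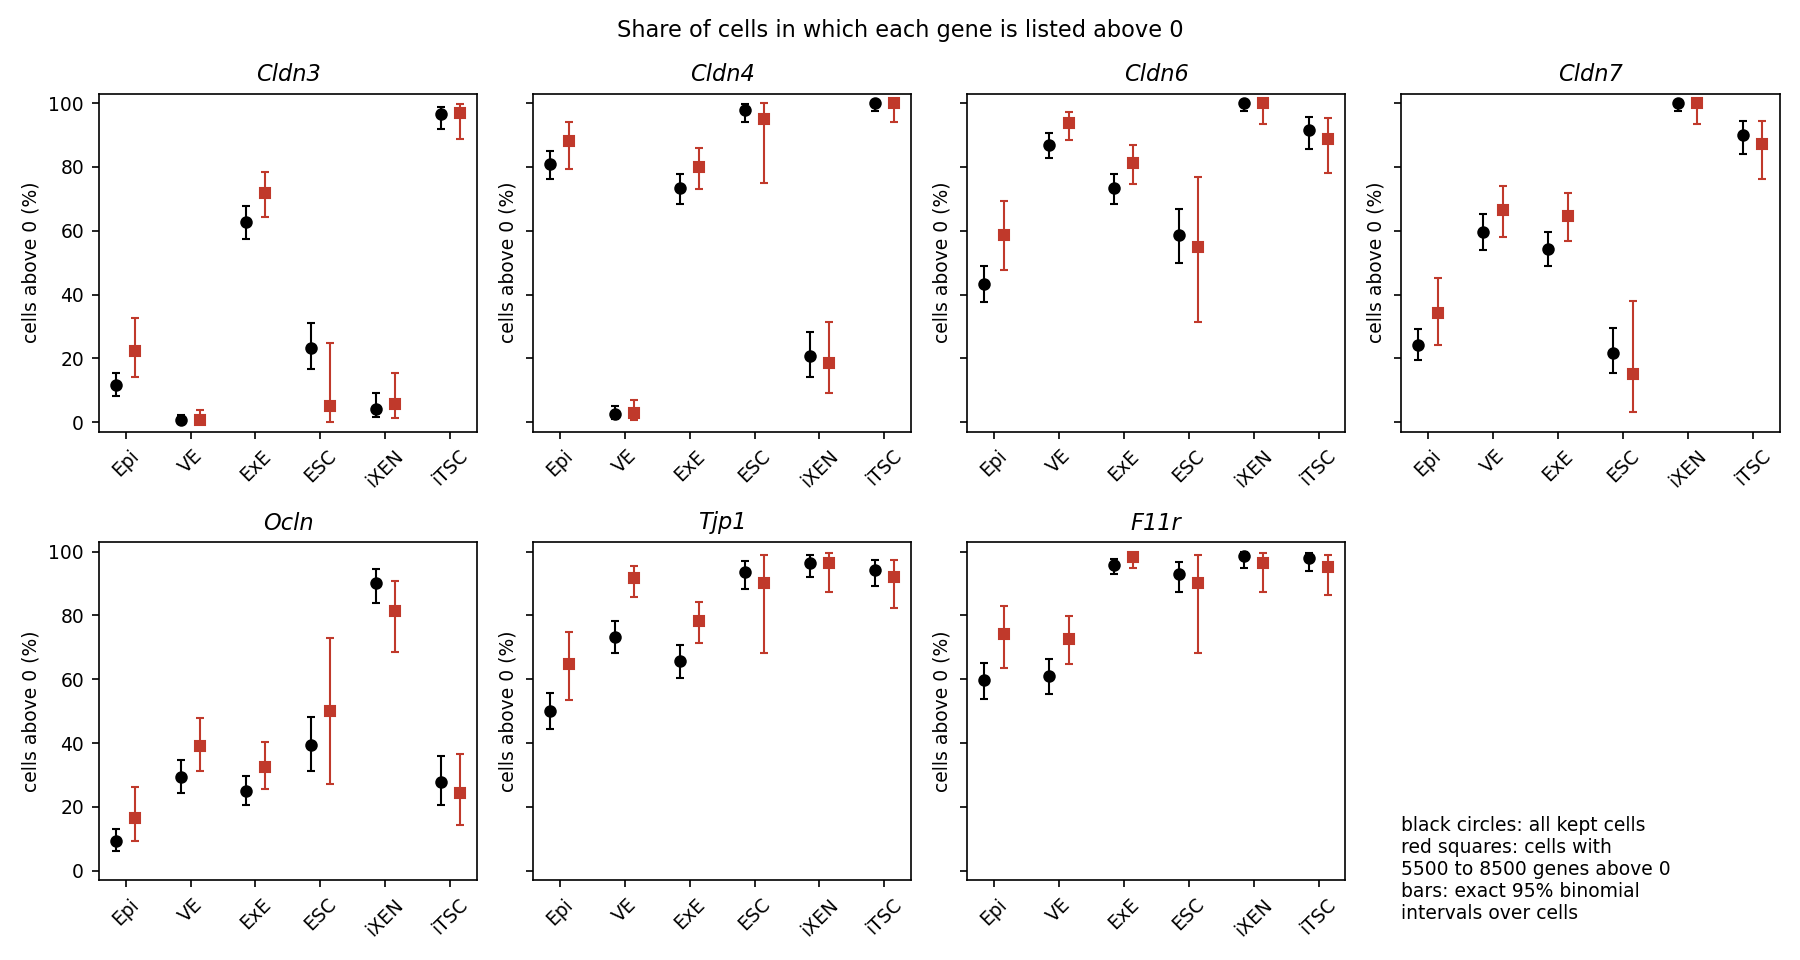
Share of cells in percent (vertical axis) in which each of the 7 genes was listed above 0 in the 6 groups (horizontal axis), for all kept cells (black circles) and for cells with 5500 to 8500 genes (red squares), with exact 95% binomial intervals. *Cldn3* is above 0 in 62.6% of ExE wells and 0.635% of VE wells, and the red squares keep this order.

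Single cells differed in how many of the 7 genes they showed. The median was 3 members in Epi and VE wells, 5 in ExE wells, 4 in ESCs, 5 in iXEN cells and 6 in iTSCs. All 4 claudins were above 0 together in 80.1% of iTSCs and 37.1% of ExE wells, but in 3.82% of Epi wells (12 wells) and 0.635% of VE wells (2 wells). Cells with more genes showed more members in each group, with Spearman correlations of 0.28 to 0.44. No claudin member was listed in 40 Epi, 27 VE and 32 ExE wells, whereas this was so for 1 ESC and for no iXEN cell or iTSC.

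Within groups, *Cldn6* and *Cldn7* levels correlated more closely in the 3D wells and iXEN cells than in ESCs and iTSCs. Their Spearman correlation over cells was 0.55 in iXEN cells, where both were above 0 in every cell, 0.54 in VE wells (plates 0.42 to 0.68), 0.51 in ExE wells (0.44 to 0.62) and 0.39 in Epi wells (0.23 to 0.58), against 0.19 in iTSCs and 0.16 in ESCs. *Cldn3* and *Cldn4* correlated at 0.62 in ExE wells (0.57 to 0.68) and at 0.18 in iTSCs. *Cldn3* and *Cldn7* correlated at 0.51 in iTSCs and 0.41 in ExE wells, and *Cldn6* and *Ocln* at 0.36 in VE wells and 0.35 in iXEN cells. These cells share their library plates and the scaling of each cell, and the values are descriptive.

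**Figure D5:**
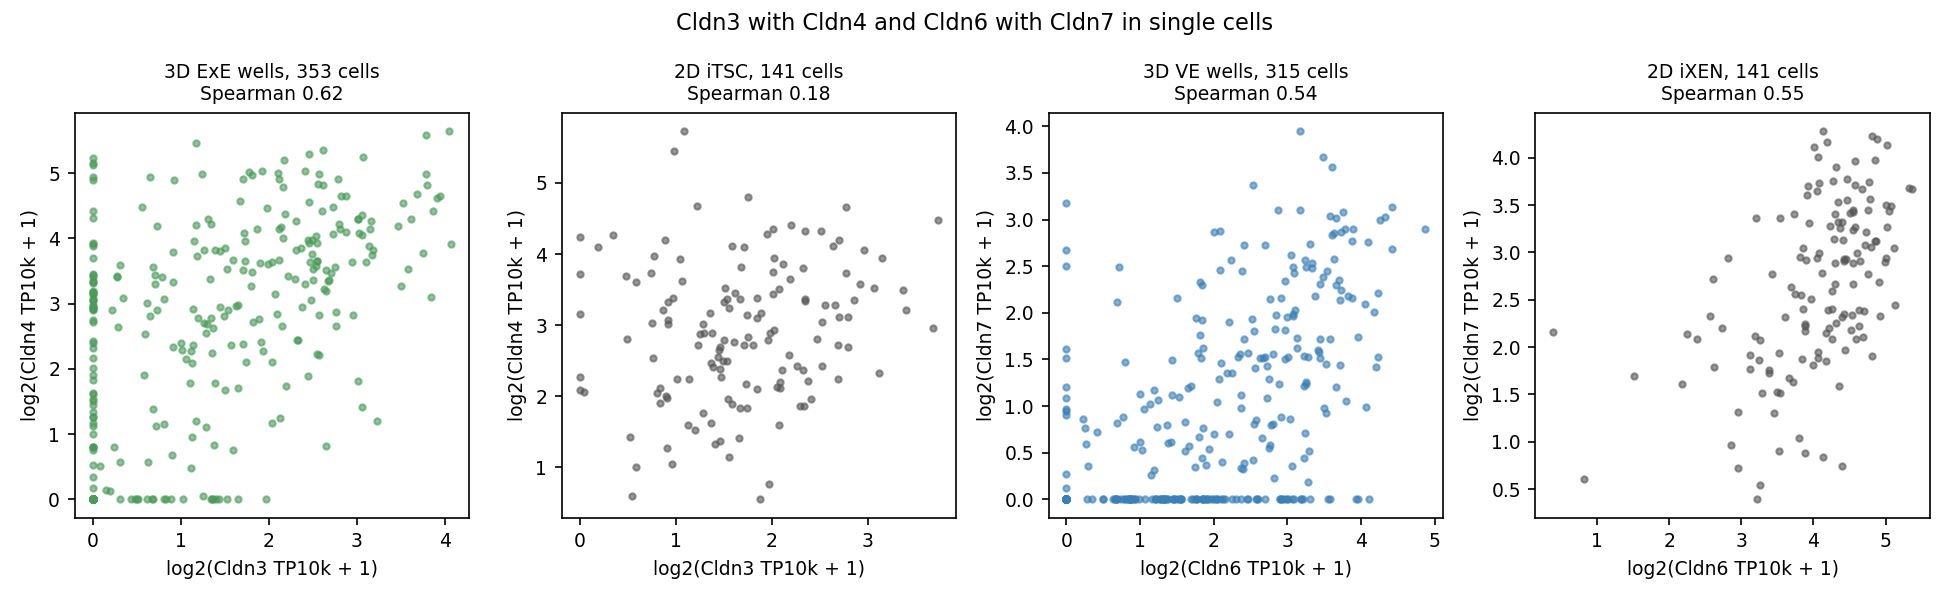
Each point is 1 cell, with log2(TP10k + 1) of *Cldn3* against *Cldn4* in the kept ExE wells and iTSCs, and of *Cldn6* against *Cldn7* in the kept VE wells and iXEN cells. ExE wells contain 94 cells at 0 on the *Cldn4* axis, most of them at 0 for *Cldn3* too, whereas every iTSC lies above 0 for *Cldn4*.

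The ExE wells were mixed for *Cldn4*, a split chosen after its values were seen. *Cldn4* was above 0 in 73.4% of the wells and listed at 0 in the other 94, with median gene numbers of 5576 and 4952.5. *Cldn3* averaged 3.02 TP10k in the former (plates 2.31 to 3.4) and 0.234 in the latter (0.174 to 0.262). *F11r* was lower with *Cldn4*, at 5.42 and 6.56 TP10k, on each plate, and *Cldn6* averaged 4.02 and 4.01. Wells led by other markers made up 12.4% of those with *Cldn4* and 27.7% of those without. Among the wells led by ExE markers, *Cldn3* averaged 3.33 with and 0.244 without *Cldn4*, *Cldn6* 4.11 (plates 3.7 to 4.42) and 1.54 (0.981 to 2.36), *Cldn7* 2.33 (2.32 to 2.34) and 0.348 (0.214 to 0.469), and *F11r* 5.64 (5.11 to 6) and 7.99 (7.49 to 8.45). Where *Cldn4*, which defined the split, was at 0, *Cldn3*, *Cldn6* and *Cldn7* were thus lower in these wells and *F11r* was higher. Over all ExE wells the Spearman correlation of *Cldn4* was 0.62 with *Cldn3*, 0.42 with *Cldn7*, 0.29 with *Cldn6* and -0.05 with *F11r*. For *F11r* the plates ranged from -0.14 to 0.01. The shares that follow are again over all ExE wells, those led by other markers included. Among trophoblast genes, *Elf5* was above 0 in 41.3% of the wells with *Cldn4* and 12.8% of those without. *Hand1* was above 0 in 36.3% and 2.13%, *Grhl3* in 45.2% and 8.51%, and *Cdx2* in 59.5% and 67%. *Eomes* had 59.5% and 43.6%, *Tfap2c* 68.7% and 28.7%, and *Gata3* 57.5% and 42.6%. Mean *Gata3* went the other way, at 0.757 and 0.99 TP10k. *Cd40*, the gene of the sorting stain, was above 0 in 43.2% and 40.4%. Of the VE markers, *Gata4* was above 0 in 30.1% and 60.6%, *Amn* in 10.4% and 18.1% and *Cubn* in 2.7% and 21.3%.

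Sorting the ExE wells by *Cdx2* gave a different picture. The 61.5% of wells with *Cdx2* had more *F11r* than those without, at 6.8 TP10k (plates 6.11 to 7.65) against 4 (3.74 to 4.43), and less *Ocln*, at 0.13 (0.0436 to 0.187) against 0.271 (0.239 to 0.293). *Cldn4* was lower with *Cdx2*, at 7.7 (7.34 to 8.37) against 9.5 (8.62 to 10.7). On each plate *Cldn6*, *Cldn7* and *Tjp1* were also lower with *Cdx2*, and *Cldn3* had no common direction. *Cdx2* is itself one of the ExE markers and a transgene of the 5 Factor line. Wells led by other markers made up 2.76% of the wells with *Cdx2* and 38.2% of those without. In a comparison added after seeing the data, among wells led by ExE markers, *F11r* averaged 6.85 (6.29 to 7.57) with and 4.52 (4.11 to 5.11) without *Cdx2*, and *Cldn4* 7.82 (7.5 to 8.5) and 12.1 (11.3 to 13.2). The *Ocln* difference was not seen there, at 0.125 and 0.138. *Cldn6* averaged 3.59 and 3.32 and had no common direction over the plates, being lower with *Cdx2* on plate 5 (3.04 against 3.71) only. Median gene number was 5655 with *Cdx2* and 4928.5 without.

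In VE wells, those with *Nodal* or *Lefty1*, genes of the signalling pathway that patterns the distal and anterior visceral endoderm, had more *Cldn6* and *Cldn7*. The 79 such wells (25.1%) averaged 7.13 TP10k of *Cldn6* (plates 6.72 to 7.93) against 3.98 in the others (2.84 to 5.16), and 2.72 of *Cldn7* (2.43 to 3.24) against 1.21 (0.89 to 1.51). *Ocln* averaged 0.352 (0.238 to 0.515) and 0.183 (0.141 to 0.228). *Tjp1* and *F11r* had no common direction over the plates. The median gene number was 5524 with and 5252.5 without. Epi wells with *Otx2*, a gene of the primed epiblast, had no common direction over the plates for *Cldn3*, *Cldn4*, *Cldn6*, *Cldn7* and *Tjp1*, while *F11r* was lower with *Otx2* at 0.81 (0.716 to 0.928) against 1.02 (0.988 to 1.08) and *Ocln* higher at 0.0783 (0.0623 to 0.0968) against 0.0562 (0.0509 to 0.0614).

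Over the 9 plate means and 3 culture means, the genes whose profile was most like a member were sought among the 11962 genes that reached 25% of cells in any group. For *Cldn3* these were *Lgals1* (Pearson 0.987) and *Gata1* (0.983), for *Cldn4* *Fgfr1* (0.983) and *Hnrnpr* (0.976), and for *Cldn6* *Neu1* (0.972) and *Zyx* (0.963). *Cldn7* was most like *Cyba* (0.953) and *Zyx* (0.951), *Ocln* like *Ank* (0.970) and *Spink1* (0.961), and *F11r* like *1110008F13Rik* (0.988) and *Cd47* (0.976). For *Tjp1* the highest values were 0.802 (*Usp31*) and 0.798 (*Arfip2*), so no gene tracked its small differences as closely. As the best of 11962, these correlations are high by selection.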

How the data were processed

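Single cells were profiled by SMART-seq2, which reads whole transcripts without strand or molecular identifiers. The authors pseudoaligned reads with kallisto to GRCm38 transcripts, summarized genes with tximport, removed mitochondrial, ribosomal and pseudogenes and deposited TPM per gene and well. Read depth is unknown from such values, so the gene number per cell stands in for it. The study's minimum of aligned reads was not applied here. Of 1931 wells, 39 2D wells had no values and 32 others summed to 0.

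TPM were scaled to 10000 per cell with Python 3 (numpy, pandas, scipy), and group means were compared as log2((mean + 0.1)/(mean + 0.1)). Each condition was 1 sample, so no test was run, and no doublet caller was used on these sorted single wells. Shares have exact Clopper-Pearson 95% intervals, and a share of 0 has a limit of 3 cells over the number of cells.

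The 7 members and all lists were chosen with earlier results of these data known. Named genes were all members, per comparison the 3 called list genes with the largest log2 ratio, claudins found in at least 25% of a group, called regulators and the 2 genes most like each member, with *Cldn9* added after its values were seen. Alternatives changed the minimum of genes, detection, share filter, pseudocount, fold, scaling, mean, wells used and plates. Promoters came from RefSeq (GRCm38.p6), where all 7 members matched by symbol.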

Additional observations from a re-analysis of the deposited data

Results flagged for a closer look

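Members differed in opposite directions between the 3D and 2D forms of 2 lineages. *Cldn6* had a log2 ratio of 1.37 for Epi wells against 2D ESCs and -1.87 for VE wells against 2D iXEN cells. *Cldn7* had 1.69 and -1.94 in the same comparisons. *Ocln* had -1.01 for VE wells against iXEN cells and 1.03 for ExE wells against iTSCs. Both *Ocln* ratios stood at the threshold and were each called under 9 of 13 alternatives. In wells led by their own markers they were -0.99 and 0.83 and not called. In each case all 3 plates had the sign given, the plates being splits of 1 pooled suspension set against 1 culture. The difference between lineages was not tested, as each condition was 1 sample.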

How the results depend on the processing

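Over the 9 comparisons 34 member calls were made, of which 30 were also made under every one of the alternatives run for that comparison, and all 34 kept their sign. The alternatives without the share filter, with a pseudocount of 0.01 and at 1.5-fold can only add calls. No call could be lost under them, so only the other alternatives could drop a call. No called ratio reversed. The 4 calls lost somewhere were *Cldn4* and *Cldn6* in Epi wells against ESCs and *Ocln* in VE wells against iXEN cells and in ExE wells against iTSCs. The members called in VE against Epi wells became 5 at a pseudocount of 0.01, those in Epi wells against ESCs became 1 with the mean of log values, and those in ExE wells against iTSCs became 1 with at least 4000 genes per cell, with the mean of log values and with wells led by their own markers. Over all genes these settings called 30.2%, 4.32%, 5.76%, 5.13% and 6.19% in turn. The main setting called 16%, 4.41% and 6.32% in these comparisons. Leaving out 1 plate at a time gave 1 to 2 members in ExE wells against iTSCs, the 1 being without plate 4.

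The calls of the tight junction list moved with the settings, as did those over all genes. At a pseudocount of 0.01 its calls became 8 (VE against Epi), 11 (ExE against Epi), 10 (VE against ExE), 6 (Epi against ESC), 4 (VE against iXEN), 7 (ExE against iTSC), 12 (iXEN against ESC), 12 (iTSC against ESC) and 12 (iXEN against iTSC). At 1.5-fold they became 9, 11, 12, 5, 5, 7, 11, 9 and 9 in that order. In the same order, the main setting called 16%, 10.3%, 10.1%, 4.41%, 2.38%, 6.32%, 14.2%, 8.99% and 10.5% of all genes. The pseudocount of 0.01 called 30.2%, 22.2%, 21.9%, 14.6%, 8.53%, 17%, 31.4%, 23.5% and 24.3%. At 1.5-fold these shares were 35.5%, 26%, 25.4%, 16.3%, 9.88%, 19.1%, 30.7%, 22.5% and 24.1%. In cells with 5500 to 8500 genes the list calls became 3 (ExE against Epi) and 7 (iTSC against ESC), where 9.44% and 11.4% of all genes were called. With the mean of log values they became 1 (VE against iXEN) and 2 (iTSC against ESC), where 2.3% and 7.99% of all genes were called. The cause was not tested.

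No paired analysis was possible because each condition was 1 sample and the plates hold splits of 1 suspension. Low genes such as *Ocln* are limited by depth, which the TPM do not give, and its ratios lay near the threshold in VE wells against Epi wells and iXEN cells and in ExE wells against iTSCs. In ExE wells with against without *Cdx2*, the log2 ratio of *Cldn6* was -0.36 over all wells. It reversed to 0.11 in wells led by their own markers, an alternative added after seeing the data. There the plates had no common direction, plate 5 still being lower with *Cdx2*.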
